A study of Homo sapiens with 21 samples.

Results

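Smooth muscle contractile genes were followed in HMLE cells, an immortalized human mammary epithelial line, over a course of TGFβ treatment. The members were the rows whose symbols were *ACTA2*, *TAGLN*, *CNN1*, *CNN2*, *CNN3*, *CALD1*, *TPM1*, *TPM2*, *MYL9* and *MYLK* in a table of 23201 genes, 10 genes in all, and all 10 were found. RNA-seq libraries came from untreated cells (d0) and from cells on days 1, 4, 7, 10, 15 and 20 of TGFβ (d1 to d20). Each of the 7 timepoints had 3 libraries, described by the study as biological triplicates. Untreated libraries were given for d0 only, so TGFβ and days in culture cannot be told apart. All groups were this one line, seeded at one density, with no genetic change between groups given in the labels, and the dose of TGFβ was not given there. Libraries held between 18847917 and 22667754 reads. The normalised read count is the number of reads of a gene divided by 1 size factor per library. The third d7 library, numbered by column order only, stood apart from the other two at that timepoint, with a root mean square log2 difference of 0.472 and 0.457 per gene, against 0.214 to 0.243 between all other libraries of one timepoint. Members' d7 values are therefore given for each library, and their d7 calls that changed without the third one are named. Since RNA came from whole cultures, fewer cells that express a gene and less RNA of it per cell cannot be told apart.

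In smooth muscle, force comes from myosin filaments pulling on actin filaments. Calcium signals activate the myosin light chain kinase MYLK, which phosphorylates the regulatory light chain MYL9, while tropomyosins, calponins, caldesmon and transgelin sit along the actin filament and adjust its stability and its contact with myosin. Many of these genes are controlled by serum response factor (SRF), which binds a DNA element called the CArG box together with myocardin or the related MRTF cofactors. In the breast, basal (myoepithelial) cells that surround the ducts carry much of this machinery, and fibroblasts acquire it when TGFβ turns them into myofibroblasts.

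Upstream sequence was available for 8 of the 10 members in RefSeq (GRCh38.p14), as 14 windows of 250 bases before and 50 after a transcription start, and *TAGLN* and *MYL9* were not matched. A CArG box, with all 6 central bases A or T, was found in 2 of the 14 windows, in *CNN2* and *MYLK*, and 1.29% of all 35116 windows held one. With at least 5 of the 6 central bases A or T, 4 of the 14 windows held a box, compared with 8.13% of all windows, and the additional 2 were the first windows of *ACTA2* and *CALD1*. The letters CATTCC, the core bound by TEAD factors, were in 5 of the 14 windows on either strand, compared with 4928 of all 35116 windows. A match of letters is a description and shows no binding. The 250 bases before the start are shown for the 3 members whose boxes lie nearest to the full pattern or come as a pair, so that the boxes can be seen in place, with CArG boxes and CATTCC (or GGAATG, the same site on the other strand) in capitals. They lie at chr10:88952774-88953023 (minus strand), chr19:1026358-1026607 (plus strand) and chr3:123620549-123620798 (minus strand).
ACTA2: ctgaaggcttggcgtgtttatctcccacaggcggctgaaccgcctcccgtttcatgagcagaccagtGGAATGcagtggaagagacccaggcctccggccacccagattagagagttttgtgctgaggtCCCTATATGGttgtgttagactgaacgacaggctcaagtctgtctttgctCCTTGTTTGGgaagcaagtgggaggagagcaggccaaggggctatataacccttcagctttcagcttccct
CNN2: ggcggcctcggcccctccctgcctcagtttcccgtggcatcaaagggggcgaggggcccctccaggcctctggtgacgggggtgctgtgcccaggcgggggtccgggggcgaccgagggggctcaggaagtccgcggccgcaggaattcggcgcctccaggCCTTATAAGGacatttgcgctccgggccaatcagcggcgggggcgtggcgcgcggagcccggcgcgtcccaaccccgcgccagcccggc
MYLK: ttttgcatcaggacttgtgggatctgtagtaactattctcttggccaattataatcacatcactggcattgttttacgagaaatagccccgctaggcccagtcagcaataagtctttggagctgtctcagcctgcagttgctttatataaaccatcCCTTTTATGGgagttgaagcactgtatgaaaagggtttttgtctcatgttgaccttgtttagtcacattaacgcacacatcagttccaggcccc
In *ACTA2*, the boxes CCCTATATGG and CCTTGTTTGG start at -121 and -71 from the transcription start, and each has 5 of 6 central bases A or T. The box of *CNN2* is CCTTATAAGG at -89 and that of *MYLK* is CCTTTTATGG at -94. Their courses over the treatment differed, with *ACTA2* and *CNN2* highest at d15 and the highest mean of *MYLK* at d20. A CATTCC of *MYLK* begins at -1 and is not shown whole. Which transcript of *MYLK* begins at this start was not determined, so its box cannot be assigned to the transcript of the kinase.

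Relative to untreated cells, most members were higher on each treated day, though not always the same ones. The largest rise was in *TAGLN* at d15, 16.8-fold by the means. Without the third d7 library, its rise at d7 was larger (log2 fold change 4.24, against 4.06 at d15). Of the 10 members, 9 passed a minimum mean value of 10 across the 21 libraries and were tested with 13343 genes in limma on log2(value + 1), with Benjamini-Hochberg adjustment within each contrast. *CNN1* was not tested. At d1, 7 of the 9 tested members were higher and 1 was lower, where 31.3% of all genes tested were higher and 28.5% lower. At d4, 7 were higher and 2 lower, beside 36.9% and 35.3% of all genes. By d7, 7 members were higher and 1 lower (34.6% and 32.6% of all genes), and at d10 the counts were 6 and 1 (37.0% and 30.7%). At d15, 7 were higher and 2 lower (39.2% and 37.3%), and d20 had 7 higher and 0 lower (32.5% and 30.2%). These shares depend on the scaling between libraries. With libraries rescaled to one common total, 2436 of 13352 genes were higher at d1 and 6696 lower, beside 5 members higher and 1 lower, and at d15 the genes were 4044 and 6303, beside 7 and 2 members. Over the 6 days that scaling gave between 2436 and 4044 genes higher and between 6303 and 6784 lower. Quantile normalization gave 3390 and 4642 of 13343 genes at d1, beside 6 and 1 members. The median log2 fold change of the 9 was 0.68 (d1), 0.74 (d4), 0.95 (d7), 0.64 (d10), 1.20 (d15) and 0.73 (d20), while the median of all genes tested was within 0.031 of zero.

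**Figure D1:**
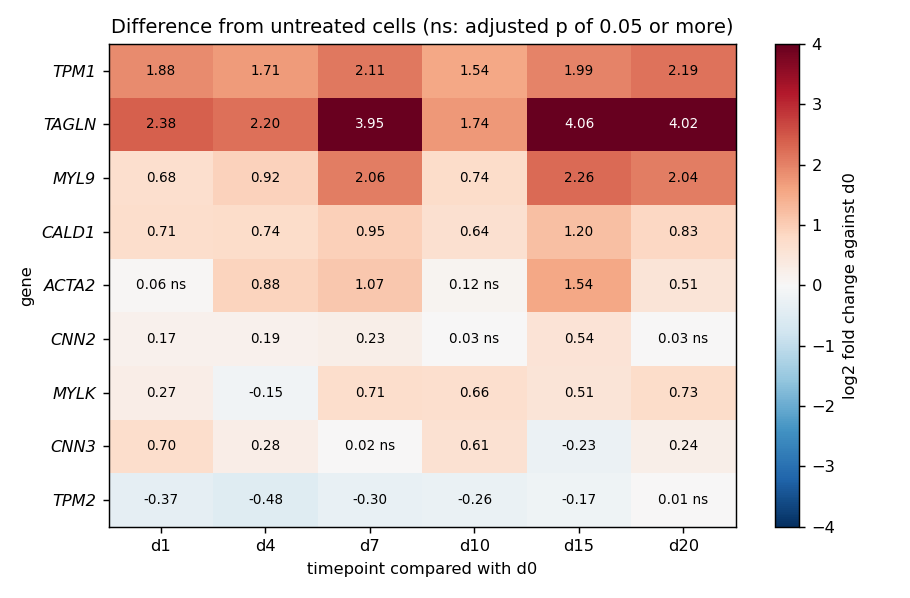
Log2 fold change against d0 on log2(normalised read count + 1) for the 9 tested members (rows) on each treated day (columns), from red (higher) to blue (lower), with "ns" where the limma adjusted p was 0.05 or more. *TPM1*, *TAGLN*, *MYL9* and *CALD1* are red on all 6 days, *TPM2* is blue on 5, and *TAGLN* reaches 4.06 at d15.

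A rise of at least 2-fold was seen for 2 members at d1 (6.47% of all genes tested), *TAGLN* and *TPM1*, and for the same pair at d4 (9.68%) and d10 (6.94%). At d7 there were 4 such members (8.79% of all genes), with *MYL9* and *ACTA2* added, at d15 there were 5 (11.7%), with *CALD1* as well, and at d20 there were 3 (7.51%), *TAGLN*, *TPM1* and *MYL9*. In 4 members, *TAGLN*, *TPM1*, *MYL9* and *CALD1*, all 18 treated libraries lay above all 3 untreated ones, as did 14.6% of all genes tested. The same 4 were called higher on all 6 treated days, compared with 14.3% of all genes. *CNN3* and *MYLK* were called higher on at least 1 day and lower on another, which held for 28.7% of all genes.

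**Figure D2:**
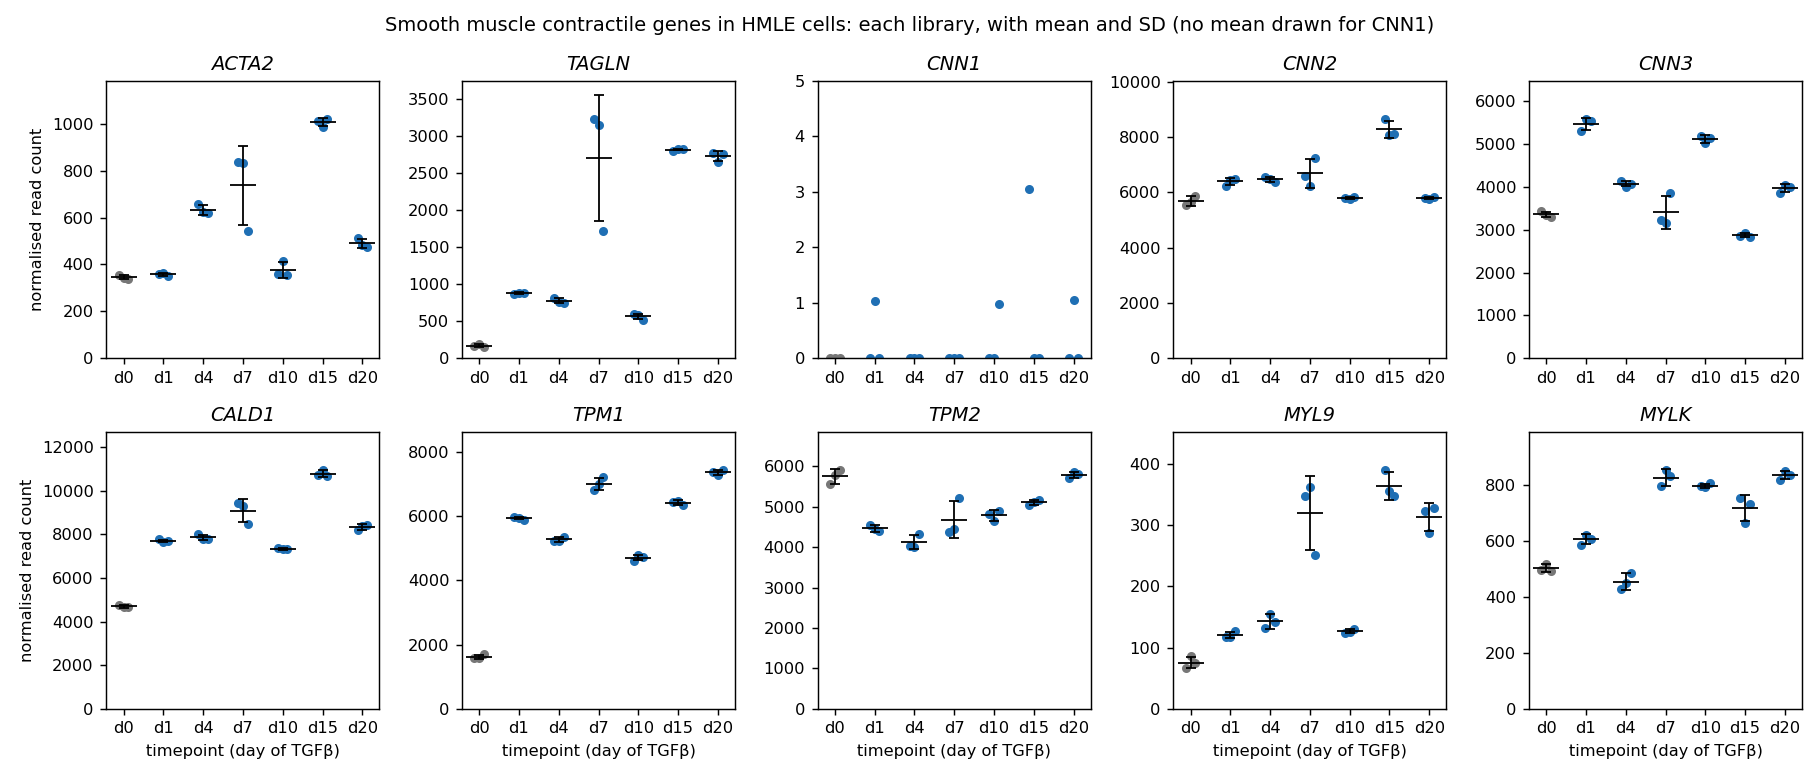
Normalised read count (vertical axis, linear, from 0, with its own scale in each panel) of the 10 members in each of the 21 libraries (points, d0 in grey), with the mean (bar) and SD (whisker) of the 3 libraries at each timepoint (horizontal axis, in order and not to scale). *ACTA2*, *TAGLN* and *MYL9* are high at d7 and d15 with a trough at d10, the third d7 library lies far below the other two in these genes, and *CNN1* has at most 3 reads in any library.

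*ACTA2* encodes α-smooth muscle actin, the actin isoform of smooth muscle cells and myofibroblasts. Its normalised read counts were 354, 342 and 339 (d0), 359.8, 364 and 352 (d1), 658, 625 and 619 (d4) and 838, 833 and 543 (d7). Later they were 358, 417 and 356 (d10), 1012, 988 and 1020.4 (d15) and 513, 485 and 476 (d20). The gene thus stood close to the untreated level on the first day, was highest at d15, and was again close to the untreated level at d10, between high values at d7 and d15. The libraries of d1 overlapped those of d0 and those of d10 began just above them, while every library of d4, d7, d15 and d20 lay above all 3 untreated ones. The log2 fold change was 0.06 at d1 (limma, adjusted p = 0.674) and 0.12 at d10 (limma, adjusted p = 0.315). It was 0.88 at d4 (standard error 0.11, limma, adjusted p = 2.41e-07), 1.07 at d7, 1.54 at d15 (standard error 0.11, adjusted p = 2.15e-11) and 0.51 at d20 (adjusted p = 0.000304). In order of level, neighbours among d0, d1 and d10 did not differ (adjusted p of 0.05 or more in limma, as for each such statement here), nor did d4 and d7, whereas d15 lay above d7 (limma, adjusted p = 0.000731). Without the third d7 library, the fold change at d7 was 1.27 and d7 lay above d4 (log2 difference 0.40, limma, adjusted p = 1.16e-06). Exons of *ACTA2* overlap those of *FAS*, a death receptor gene, on the opposite strand, and *FAS* was 909 ± 63.0 at d0, 1262 ± 202 at d7 and 1259 ± 38.1 at d15. The strand setting of the counting was not given in the sources used here, so reads from the shared stretch cannot be told apart, and the same applies to the near-identical coding parts of the actin genes.

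*TAGLN* encodes transgelin (SM22), a small actin-bundling protein, and showed the largest rise among the members on each day. It was 166, 186 and 152 (d0), 862, 885 and 883 (d1), 814, 765 and 748 (d4) and 3229, 3154 and 1723 (d7). The counts were 593, 579 and 518 (d10), 2806, 2826 and 2829 (d15) and 2776, 2652 and 2764 (d20). All treated libraries lay above the untreated ones, and a lower level at d1, d4 and d10 (518 to 885) was separate from a higher one at d7, d15 and d20 (2652 to 3229), with the third d7 library between them. On the log2 scale the change from d0 was 2.38 at d1 (standard error 0.14, limma, adjusted p = 4.91e-12), 1.74 at d10 (adjusted p = 6.49e-10) and 4.06 at d15 (standard error 0.14, adjusted p = 2.16e-16). The means of d7, d20 and d15 did not differ between neighbours, nor did those of d4 and d1. Without the third d7 library, the log2 fold change at d7 was 4.24 instead of 3.95. *PCSK7*, a protease gene whose exons overlap *TAGLN* on the opposite strand, was 941 ± 43.4 at d0 and 929 ± 20.01 at d15, and its highest mean was 1385 ± 29.6 at d10, where *TAGLN* was at its lowest treated level.

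Calponins bind actin and restrain the ATPase of myosin, and the 3 family members differed in level and in course. *CNN1*, the calponin of differentiated smooth muscle, had 0 reads in 17 of the 21 libraries and 1, 1, 3 and 1 reads in 1 library each of d1, d10, d15 and d20. No library exceeded the floor of 3 reads, which corresponds to a value between 2.55 and 3.18, so no fold change is given and a change was not detectable at this depth. *CNN2*, a calponin found in many non-muscle cells, had means of 5685 ± 169.7 (SD, n = 3) on d0, 6393 ± 133 on d1, 6465 ± 103 on d4, 6684 ± 515 on d7, 5798 ± 46.9 on d10, 8279 ± 314 on d15 and 5791 ± 40.3 on d20. The d7 libraries stood at 6606, 6212 and 7234. Only the libraries of d15, at 8641, 8084 and 8112, stood clear of all others, and their log2 fold change from d0 was 0.54 (standard error 0.04, limma, adjusted p = 1.73e-10). Its rise at d1 (0.17) and d4 (0.19) changed sign with libraries rescaled to one common total (-0.02 and -0.01), its rise at d7 (0.23) no longer passed the threshold (0.04, limma, adjusted p = 0.415), and at d10 and d20, where it had not passed the test against d0, it was then called lower (-0.20 and -0.17). That rescaling moved the median gene as well, by between -0.159 (d15) and -0.227 (d10) on the log2 scale.

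*CNN3*, the acidic calponin of non-muscle and smooth muscle cells, moved in the opposite sense to *CNN2* and *ACTA2* between several timepoints. Its counts were 3427, 3349.5 and 3295 (d0), 5304, 5579 and 5529.6 (d1), 4143, 4008 and 4078 (d4) and 3219, 3154 and 3852 (d7). They were 5192, 5019.9 and 5132 (d10), 2859, 2917 and 2833 (d15) and 3861, 4039 and 4000.1 (d20). The libraries of d1 and d10 were the highest, those of d15 lay below all untreated ones, and d7 overlapped d0. The log2 fold change was 0.70 at d1 (standard error 0.05, limma, adjusted p = 1.12e-10), 0.28 at d4, 0.61 at d10 and 0.24 at d20 (adjusted p = 0.000317). It was -0.23 at d15 (standard error 0.05, limma, adjusted p = 0.000403), and the contrast of d15 with d1 gave -0.93 (adjusted p = 6.39e-13). At d7 the value was 0.02 (limma, adjusted p = 0.793), and it was -0.08 (adjusted p = 0.04) without the third d7 library. With libraries rescaled to one common total, it was -0.18 at d7, and the rises at d4 and d20 no longer passed the threshold (log2 fold changes 0.08 and 0.04, limma, adjusted p = 0.173 and 0.516).

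*CALD1* encodes caldesmon, which binds actin, tropomyosin and myosin and holds back actomyosin activity until it is phosphorylated. Its counts were 4776, 4676 and 4648 (d0), 7769, 7651 and 7697 (d1), 7999, 7797 and 7779 (d4) and 9433, 9326 and 8474 (d7). They were 7396, 7335 and 7316 (d10), 10704, 10959 and 10668 (d15) and 8199, 8365 and 8441 (d20). No treated library overlapped the untreated ones, and the d15 libraries were the highest of all. This gave a log2 fold change of 0.71 at d1 (standard error 0.03, limma, adjusted p = 1.33e-13), 0.64 at d10 and 1.20 at d15 (standard error 0.03, adjusted p = 8.03e-18). The levels of d10, d1 and d4 did not differ between neighbours in the order.

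Tropomyosins form coiled coils along the actin filament, and the 2 members of the family moved apart. *TPM1* was 1576, 1576 and 1696 (d0), 5955, 5942 and 5887 (d1), 5236, 5218 and 5359 (d4) and 6809, 6990.4 and 7202 (d7). It was 4612, 4773 and 4728 (d10), 6431, 6479 and 6343 (d15) and 7356, 7279.8 and 7434 (d20). Most of the rise was thus present on the first day, and the lowest treated library stood far above the highest untreated one. The log2 fold change was 1.88 at d1 (standard error 0.03, limma, adjusted p = 2.63e-21) and 2.19 at d20 (standard error 0.03, adjusted p = 1.11e-22), and the smallest, at d10, was 1.54. The third d7 library was the highest of its timepoint here, in contrast to *TAGLN*, *ACTA2* and *MYL9*.

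*TPM2* encodes β-tropomyosin, the partner chain of the *TPM1* product in muscle. Its counts were 5558, 5789 and 5915 (d0), 4555, 4441 and 4399 (d1), 4024, 4018 and 4329.9 (d4) and 4382, 4446 and 5207 (d7). They were 4822, 4648 and 4896 (d10), 5053, 5108 and 5177 (d15) and 5717, 5855 and 5807 (d20). All libraries from d1 to d15 lay below the untreated ones, and those of d20 overlapped them. Against d0, the log2 fold change was -0.37 at d1 (standard error 0.05, limma, adjusted p = 1.59e-06), -0.48 at d4 (adjusted p = 1.63e-08), -0.30 at d7, -0.26 at d10 and -0.17 at d15 (adjusted p = 0.00362). At d20 it was 0.01 (standard error 0.05, limma, adjusted p = 0.867), and under both other scalings it was called lower (-0.19 with the same total and -0.15 with quantile normalization).

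The ratio of *TPM1* to *TPM2* normalised read counts, chosen after the values were seen, was 0.284, 0.272 and 0.287 in the untreated libraries. It was 1.31, 1.34 and 1.34 at d1 and 0.956, 1.03 and 0.966 at d10, the lowest treated timepoint, and the treated libraries ranged from 0.956 to 1.57. The *CNN3* to *CNN2* ratio averaged 0.591 ± 0.0286 (SD, n = 3) in untreated cells, 0.856 ± 0.0087 at d1, 0.882 ± 0.0105 at d10 and 0.347 ± 0.0151 at d15, so the treated libraries lay on both sides of the untreated ones. Each ratio is of reads and not of molecules, since the transcripts differ in length, but neither depends on the scaling between libraries.

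**Figure D3:**
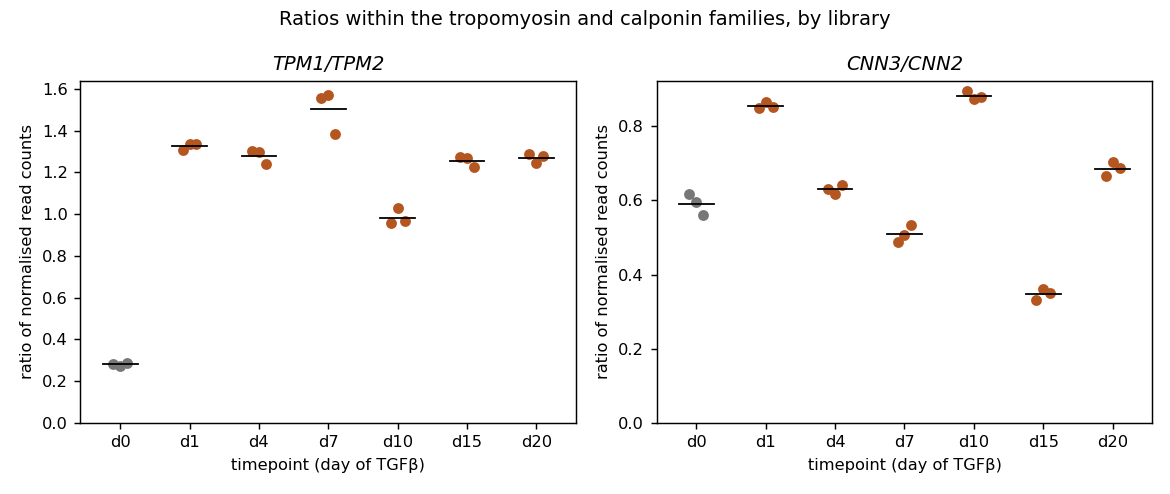
Ratio of normalised read counts (vertical axis, linear, from 0) of *TPM1* to *TPM2* (left) and *CNN3* to *CNN2* (right) in each library (points, d0 in grey) with the mean of the 3 libraries (line) at each timepoint. The tropomyosin ratio is below 0.29 in the untreated libraries and above 0.95 in the treated ones, and the calponin ratio lies above the untreated level at d1 and d10 and below it at d15.

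*MYL9* encodes the regulatory myosin light chain of smooth muscle, whose phosphorylation starts contraction. Its counts were 66.8, 85.7 and 74.2 (d0), 118, 118 and 127 (d1), 131, 156 and 142 (d4) and 348, 363 and 251 (d7). They were 123, 126 and 130.1 (d10), 391, 355 and 348 (d15) and 323, 287 and 329 (d20). As with *TAGLN*, d1, d4 and d10 formed a lower level and d7, d15 and d20 a higher one, and no treated library overlapped the untreated ones. The log2 fold change was 0.68 at d1 (standard error 0.12, limma, adjusted p = 3.78e-05), 0.74 at d10, 2.26 at d15 (standard error 0.12, adjusted p = 1.47e-13) and 2.04 at d20. Neighbours within each level (d1, d10 and d4, and d20, d7 and d15) did not differ.

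*MYLK* encodes the kinase that acts on this light chain. It was 498, 519 and 494 (d0), 587, 623 and 609 (d1), 427, 449 and 487 (d4) and 796, 855 and 832 (d7). The counts were 797, 792 and 807 (d10), 754, 667 and 733 (d15) and 820.4, 850.4 and 837 (d20). It lay below the untreated level at d4 and above it on all other treated days, and d7, d10 and d20 were the highest and did not differ between neighbours. Compared with d0, the log2 fold change was 0.27 at d1 (limma, adjusted p = 0.000219), -0.15 at d4 (standard error 0.05, adjusted p = 0.016) and 0.73 at d20 (standard error 0.05, adjusted p = 1.18e-10). The fall at d4 no longer passed the threshold without the second untreated library (-0.13, limma, adjusted p = 0.065) or the first d4 library (-0.11, adjusted p = 0.101), and the rise at d1 did not when libraries were rescaled to a common total (0.07, adjusted p = 0.247). *MYLK* had no trough at d10, with 799 ± 7.49 there against 718 ± 45.6 (SD, n = 3) at d15. *MYLK-AS1*, an antisense gene that overlaps it, was 49.0 ± 3.83 at d0 and 24.2 ± 6.39 at d10.

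Next, neighbouring timepoints were compared. From d1 to d4, 1 member rose (*ACTA2*) and 4 fell (*CNN3*, *MYLK*, *TPM1* and *TPM2*), where 32.9% of all genes tested rose and 32.0% fell. The fall of *TPM2* (-0.12) was lost when any 1 of 5 of these 6 libraries was left out. It was also lost with quantile normalization (limma, adjusted p = 0.128), without the filter on low values (limma, adjusted p = 0.0644) and in DESeq2 (adjusted p = 0.0564). With quantile normalization 3 members rose, since *CNN2* (0.08, limma, adjusted p = 0.0367) and *CALD1* (0.11, adjusted p = 0.0186) were called as well. From d4 to d7, 6 rose and 1, *CNN3*, fell (25.5% and 25.5% of all genes), led by *TAGLN* (1.74) and *MYL9* (1.14). From d7 to d10, *CNN3* rose and 6 fell (36.2% and 35.2%), with *TAGLN* at -2.21, *MYL9* at -1.32 and *ACTA2* at -0.94. Without the third d7 library the steps into d7 were 2.04 for *TAGLN* and 1.31 for *MYL9*, and those out of it -2.50 for *TAGLN*, -1.48 for *MYL9* and -1.15 for *ACTA2*. Without it *ACTA2* was also called higher at d7 than at d4, which makes 7, and *TPM2* was also called higher at d10 (0.12, limma, adjusted p = 0.00233), which makes 2 there. From d10 to d15 the same 6 genes rose (*ACTA2*, *TAGLN*, *CNN2*, *CALD1*, *TPM1* and *MYL9*) and 2, *CNN3* and *MYLK*, fell (39.3% and 40.5%). *MYLK* lost that call under both other scalings and without the second d15 library, which leaves 1. From d15 to d20, 4 rose (*CNN3*, *TPM1*, *TPM2* and *MYLK*) and 3 fell (*ACTA2*, *CNN2* and *CALD1*), compared with 37.7% and 36.3% of all genes. These steps share timepoints, so a high d15 enters the steps before and after it.

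Across the 21 libraries, which share the 7 timepoints and are not independent points, 11 of the 36 pairs of tested members had a Pearson r above 0.7 on log2(value + 1). The highest were *TAGLN* with *MYL9* (0.963), *TAGLN* with *CALD1* (0.923) and *CALD1* with *TPM1* (0.908). There were 6 pairs with r below -0.3, the lowest being *ACTA2* with *CNN3* (-0.696). How many pairs of all genes pass these limits was not counted, so neither count sets the members apart. Among *TAGLN*, *MYL9*, *CALD1* and *TPM1*, r ranged from 0.779 (*TPM1* with *MYL9*) to 0.963. *ACTA2* was not clearly apart from these genes, with 0.794 for *MYL9* and 0.781 for *CALD1*, but it had 0.726 with *TAGLN* and 0.519 with *TPM1*. *CNN2* had 0.775 with *ACTA2*. It followed *TAGLN*, *MYL9*, *CALD1* and *TPM1* in part, from 0.432 with *TPM1* to 0.707 with *CALD1*. *MYLK* did so in part as well, from 0.514 with *CALD1* to 0.658 with *MYL9*, whereas *CNN3* and *TPM2* did not. Among 10593 genes outside the members with a mean of at least 100, the genes most like each member were listed by r over the same libraries. They were *PTPRU*, *LOC642587* and *PML* for *ACTA2* (0.980, 0.979 and 0.978), *KIAA0930*, *TNC* and *OLFML3* for *TAGLN* (0.974, 0.973 and 0.970), and *COL5A2*, *TMEM173* and *SDC3* for *MYL9* (0.970, 0.965 and 0.963). For *TPM1* they were *PALLD*, an actin-bundling protein gene, *NEDD9* and *CMTM3* (0.984, 0.982 and 0.975). *CALD1* was matched by *FADS3*, *CUX2* and *LBH* (0.989, 0.977 and 0.977), *CNN3* by *WSB2*, *MAPKAPK3* and *SLC27A4* (0.982, 0.977 and 0.977), and *CNN2* by *MTCP1NB*, *RNF187* and *PRKCI* (0.930, 0.922 and 0.922). For *MYLK* they were *ARMC5*, *IFFO2* and *DSEL* (0.948, 0.940 and 0.921). The matches were weakest for *TPM2* (*FAH*, *SLC7A11* and *FAM114A2*, 0.909, 0.892 and 0.889).

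Levels were set side by side per kilobase of the longest annotated protein-coding transcript of each gene (GENCODE). In untreated cells the order of normalised read count per kilobase was *TPM2* (4133), *CNN2* (2591), *CNN3* (1551), *CALD1* (1098), *TPM1* (408), *ACTA2* (256), *TAGLN* (77.6), *MYLK* (50.2) and *MYL9* (26.8). By d20 *TAGLN* had reached 1261 and *TPM1* 1859 per kilobase, above *ACTA2* at 364. The non-muscle actin gene *ACTB* stood at 29527 per kilobase at d0 and *MYL12A*, the non-muscle counterpart of *MYL9*, at 3845, each above its smooth muscle counterpart. The order depends on the transcript used. With the median transcript length at d0, *CNN2* (5264 per kilobase) stood above *TPM2* (5003), and *CALD1* (2213) above *CNN3* (1732). With that length *TPM1* was 1473 at d0 and 6706 at d20, there above *CNN2* (5362) and *TPM2* (5037).

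The culture's identity was checked with marker lists. All 7 basal mammary markers (among them *KRT5*, *KRT14* and *TP63*) and all 7 luminal markers were expressed and tested. The summed level of the basal list was 352885 to 375898 at d0, 417265 to 788519.5 at d7, 295993 to 304768 at d10 and 574697 to 590171 at d15, so it was higher at d15 than at d0 and d10, as *ACTA2* was. The difference between d0 and d15 lay mostly in *KRT17* (39309 ± 2241 and 186677 ± 4734) and *LAMA3* (8369 ± 388 and 71965 ± 1542), while *KRT5* was lower at d15 (224349 ± 8441 and 175809 ± 2539, limma, adjusted p = 0.0359). The luminal list summed to 17805 to 19159 at d0, 13052 to 13344 at d10 and 16801 to 17104 at d15. Of its 7 genes, 0 were higher and 5 lower at d10 (37.0% and 30.7% of all genes tested). At d15, 3 were higher and 3 lower (39.2% and 37.3%). Between d0 and d15 *KRT8* rose (7955 ± 466 and 11259 ± 205.5), while *EPCAM* fell (2106 ± 52.4 and 392 ± 26.6). Of 4 leukocyte markers, 2 (*PTPRC* and *CD3E*) had at most 1 read in any library, and the summed level was 61.4 to 71.2 at d0 and at most 37.9 in treated libraries. Of 5 endothelial markers, *CDH5* had at most 1 read, and the sum was 81.1 to 109 at d0 and 275 to 291 at d15, mostly *KDR*. Of 8 fibroblast and pericyte markers, *DCN* and *LUM* had at most 1 read in any library. The summed level of that list was 2702 to 2839 at d0, 11994 to 13010.3 at d15 and 28517 to 30834 at d20, the last mostly *COL1A1*. This sum was higher than at d0 in all treated libraries, as were 4 of the members. Single genes of the list went both ways. Of its 5 tested genes, 2 were higher and 3 lower at d10 (37.0% and 30.7% of all genes tested). At d15 the counts were 4 and 0 (39.2% and 37.3%), and at d20 3 and 1 (32.5% and 30.2%). *NOTCH3* fell from 2013 ± 73.2 at d0 to 78.5 ± 3.16 at d10. Whether these marker genes bear on the members' values was not tested.

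Among 10 further smooth muscle markers, 4 were at or under 3 reads in every library: *DES* (desmin), *PLN* (phospholamban), *ACTG2* (the enteric smooth muscle actin) and *MYOCD*, the myocardin gene, which had 0 reads in all 21. *KCNMB1* had at most 4 reads. The other 5 were tested, with 1 higher and 1 lower on d1, 2 and 0 on d4, 3 and 0 on d7, 1 and 1 on d10, 5 and 0 on d15, and 2 and 0 on d20. Of all genes tested, 31.3% (d1) to 39.2% (d15) were higher and 28.5% (d1) to 37.3% (d15) lower. The median log2 fold change of the 5 was -0.09, 0.34, 0.68, -0.05, 0.66 and 0.32 in that order. *MYH11*, the smooth muscle myosin heavy chain and the strictest marker of the lineage, averaged 35.7 ± 7.81 (SD, n = 3) in untreated cells, 57.3 ± 6.27 at d7 and 53.8 ± 11.6 at d15, with log2 fold changes of 0.68 and 0.58 (limma, adjusted p = 0.00345 and 0.00927). Its call at d15 was lost with quantile normalization (0.39, limma, adjusted p = 0.0643). With libraries rescaled to one common total 1 of the 5 genes, *SMTN*, was higher at d20, beside 2661 of 13352 genes. *SMTN*, which encodes smoothelin, followed another course and was highest at d10, with 1026 ± 92.5 at d0, 3918 ± 149 at d1, 4307 ± 69.2 at d10 and 1617 ± 58.4 at d15. *SYNPO2*, an actin-bundling gene, rose from 25.4 ± 2.83 to 92.7 ± 3.13 at d15 (log2 fold change 1.83, limma, adjusted p = 2.04e-08) and was 20.6 ± 3.69 at d10. *LMOD1*, an actin-nucleating gene of smooth muscle, was 12.9 ± 3.62 at d0, 1.96 ± 0.98 at d10 and 26.8 ± 9.99 at d15. Peaks at d7 and d15 with low values at d10 were thus also measured in *SYNPO2* and *MYH11*.

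Further actin, tropomyosin and transgelin genes are paralogs of the members. Of 9 genes listed, 6 were tested and all 6 were higher at d1, d10 and d20, 4 at d4 and 5 at d7. At d15, 2 were higher and 3 lower, with a median log2 fold change of -0.21. Among all genes tested, 31.3% (d1) to 39.2% (d15) were higher and 28.5% (d1) to 37.3% (d15) lower. *ACTB* averaged 56721 ± 3159 (SD, n = 3) in untreated cells, 142272 ± 1459 at d1, 125545 ± 1126 at d10, 43205 ± 1847 at d15 and 115544 ± 2286 at d20. Its log2 fold change was 1.33 at d1 and -0.39 at d15 (limma, adjusted p = 3.6e-14 and 4.31e-06), so *ACTB* was lowest on the day on which *ACTA2* was highest. *ACTG1* differed in being higher at d15 too (0.70). *TPM3* and *TPM4*, the tropomyosin genes of non-muscle cells, had log2 fold changes of 0.81 and 1.04 at d10 and of -0.50 and 0.34 at d15. *TAGLN2*, the transgelin of most non-muscle cells, was 0.57 at d10 and -0.21 at d15, whereas *TAGLN* rose on both days. With quantile normalization *ACTB* was called lower at d4 (-0.21) and lost its call at d7 (-0.10), while *ACTG1* was called lower at d1, d4 and d10 (-0.10, -0.25 and -0.11) and lost its call at d7 (0.07, limma, adjusted p = 0.124). This left 2 higher and 3 lower genes at d4 and 2 and 1 at d7. The same scaling called 4232 of 13343 genes higher and 5461 lower at d4, and 3911 and 5310 at d7. With it the call of *TPM4* at d15 was lost (0.12, limma, adjusted p = 0.0938). Rescaling to a common total gave 2 higher and 1 lower genes at d4, beside 3440 and 6608 of 13352 genes. Without the third d7 library d7 gave 4 and 1. The actin genes *ACTA1* and *ACTC1* had at most 5 and 3 reads in any library.

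**Figure D4:**
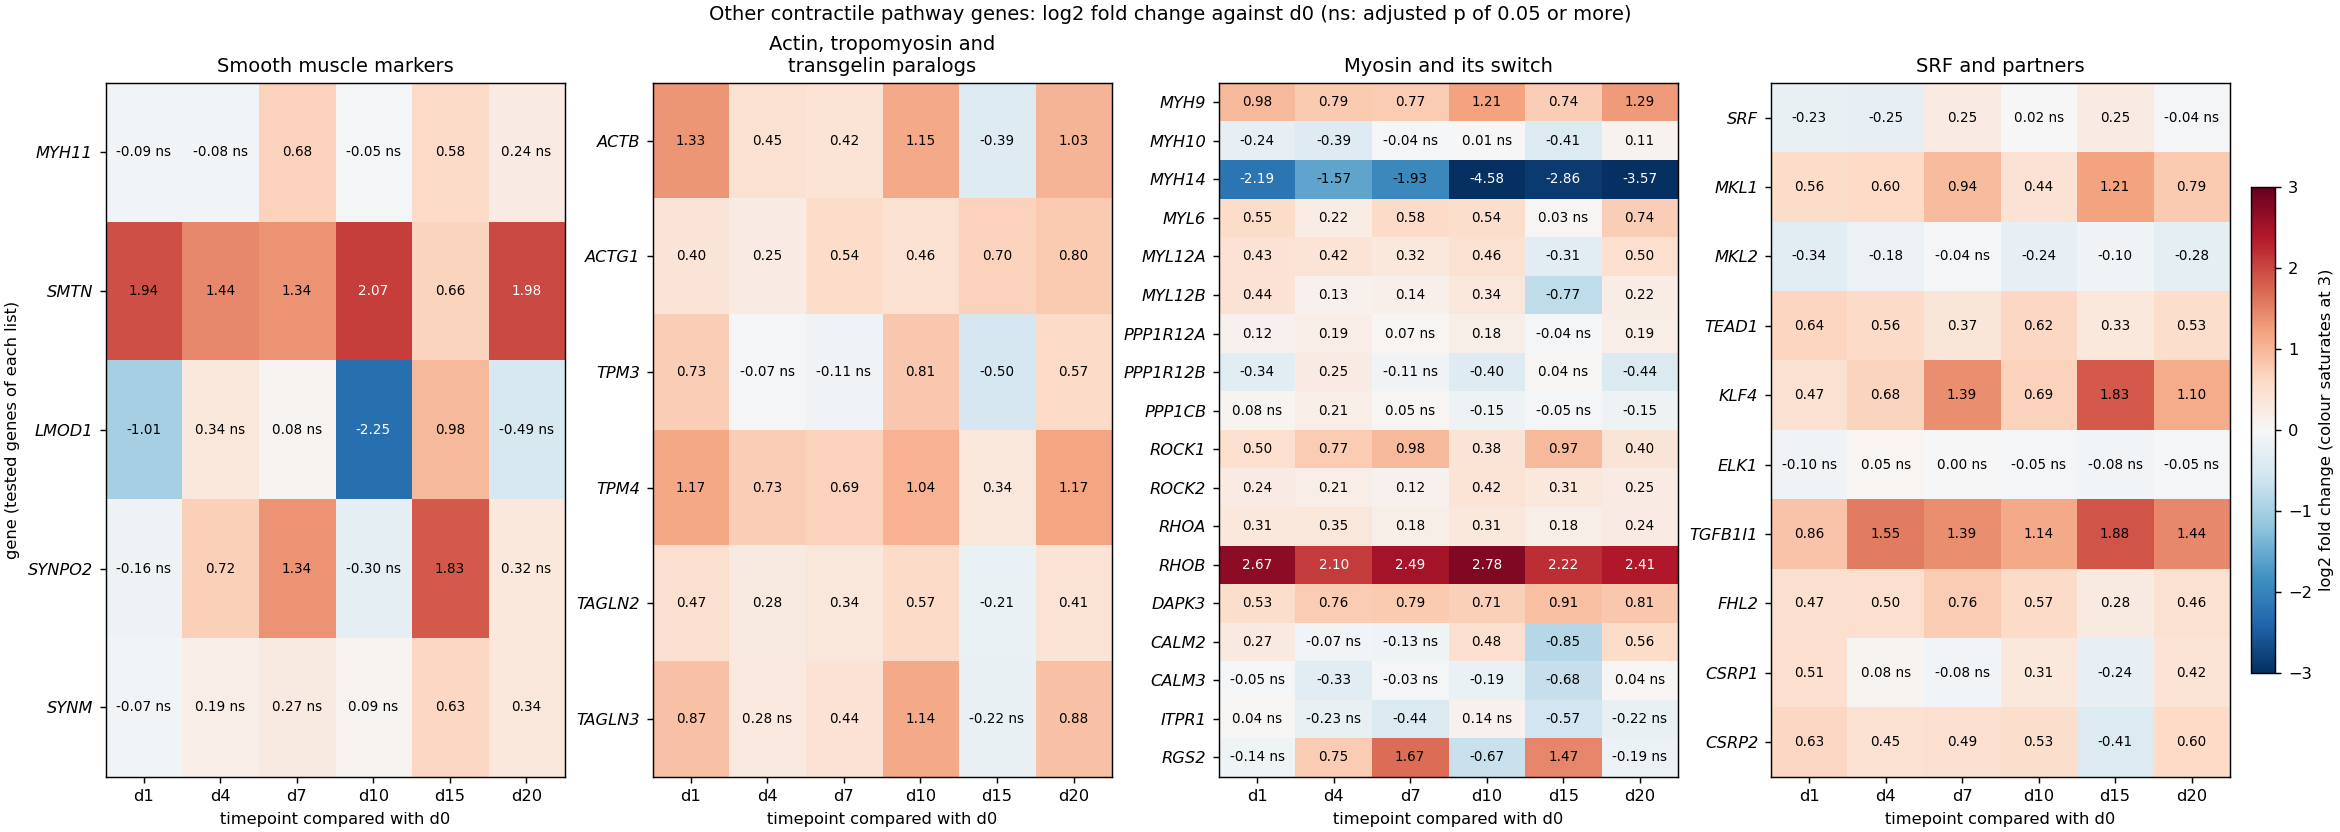
Log2 fold change against d0 for the tested genes of 4 lists (panels, genes in rows) on each treated day (columns), from red (higher) to blue (lower), with "ns" where the limma adjusted p was 0.05 or more and colours saturating at 3. *ACTB*, *TPM3*, *MYL12A* and *MYL12B* are blue at d15, where *KLF4*, *TGFB1I1*, *MKL1* and *SYNPO2* have their darkest red, and *MYH14* is blue on every day.

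For the myosin motor and its switch, 18 of 19 genes were tested, with 11 higher and 3 lower on d1, 13 and 3 on d4, 10 and 2 on d7, 11 and 5 on d10, 7 and 7 on d15, and 12 and 3 on d20. The shares of all genes tested were 31.3% (d1) to 39.2% (d15) higher and 28.5% (d1) to 37.3% (d15) lower. The median log2 fold change of the list ranged from -0.005 at d15 to 0.324 at d10. With libraries rescaled to one common total the counts of the list were 8 and 5, 6 and 5, 7 and 8, 10 and 6, 6 and 10, and 7 and 5. Over the 6 days that scaling gave 2436 to 4044 of 13352 genes higher and 6303 to 6784 lower. *MYH9*, the main non-muscle myosin heavy chain, was higher on all 6 days, with log2 fold changes from 0.74 at d15 to 1.29 at d20. *MYH14* was lower on all 6, with -4.58 at d10, where its mean was 0.98 against 42.65 at d0. The d10 mean is under the floor of 3 reads, so the size of that fold change is uncertain. At d7 *MYH14* lost the call without the third library (-0.94, limma, adjusted p = 0.0582). The non-muscle light chain genes *MYL12A* and *MYL12B*, close paralogs of *MYL9* that can share reads with it, were lower at d15 (-0.31 and -0.77, limma, adjusted p = 6.3e-09 and 4.56e-13), where *MYL9* was at its highest. *RHOB*, a small GTPase gene, was between 2.10 and 2.78 on the 6 days, and *ROCK1*, the kinase that acts against myosin phosphatase, was highest at d7 and d15 (0.98 and 0.97).

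Among SRF and its partners, 10 of 11 genes were tested, with 7 higher and 2 lower on d1, 6 and 2 on d4, 7 and 0 on d7, 7 and 1 on d10, 6 and 3 on d15, and 7 and 1 on d20. On these days, 31.3% (d1) to 39.2% (d15) of all genes tested were higher and 28.5% (d1) to 37.3% (d15) lower. With libraries rescaled to a common total the counts of the list were 7 and 3, 6 and 3, 6 and 3, 6 and 3, 4 and 4, and 7 and 3. That scaling gave 2436 to 4044 of 13352 genes higher and 6303 to 6784 lower. *SRF* itself stayed between log2 fold changes of -0.25 and 0.25, and its rises at d7 and d15 were lost when libraries were rescaled to a common total (0.06 and 0.09). With that scaling *SRF* was also called lower at d10 and d20 (-0.21 and -0.24, limma, adjusted p = 0.00582 and 0.00263). *MKL1* (MRTFA), the cofactor that carries actin signals to SRF, was higher on all days and highest at d15, with 847 ± 18.7 at d0 and 1962 ± 99.9 at d15 (SD, n = 3; log2 fold change 1.21, limma, adjusted p = 1.39e-14). *MKL2* (MRTFB) was lower at d1, d4, d10, d15 and d20, with -0.34 at d1. *TGFB1I1* (Hic-5), a focal adhesion adaptor, reached 1.88 and *KLF4*, known as a repressor of smooth muscle genes, 1.83 at d15 (limma, adjusted p = 6.32e-17 and 6.65e-14). Of 10 general SRF and MRTF target genes (*TGFB1I1* is on both lists), 9, 10, 10, 8, 9 and 8 were higher on the 6 days in order and 1, 0, 0, 0, 0 and 1 lower. All 8 listed TGFβ target genes were higher on every treated day, with a median log2 fold change between 2.92 and 3.85.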

How the data were processed

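RNA of HMLE cells (3 libraries at each of 7 timepoints) was sequenced on Illumina libraries made from total RNA. The authors deposited a normalised signal per gene and library, which is the read count divided by 1 size factor per library and rounded to 2 decimals, and the submitters' processing notes name STAR 2.7, Salmon 1.4 and the build hg19 without stating their roles. All 21 columns were mapped to a timepoint by their names, which carry no replicate number of the labels, so libraries are numbered by column order. Whole reads were recovered from the signal for 100.0% of the values under 2000 reads in each library (tolerance 0.1 read). Floors and totals cover counting error only.

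Genes with a mean of at least 10 were tested on log2(value + 1) in limma 3.58.1 (R 4.3.3; 1 mean per timepoint, eBayes with a trend), over all 21 libraries, with Benjamini-Hochberg adjustment over 13343 genes within each contrast and a threshold of 0.05. A log2 fold change on this scale understates changes of low genes. Alternatives were another pseudocount (10), testing without the filter, quantile normalization, libraries rescaled to a common total, a fit on just the 2 groups of a contrast, edgeR 4.0.16 (quasi-likelihood) and DESeq2 1.42.0 on the recovered reads, a minimum log2 fold change of 1, and each library left out. Scripts were tested on simulated data. The members, the lists of pathway and marker genes and the tests were chosen with earlier results of these data known. Of the listed genes, 2 are not reported here and are in no list count. All members were named, together with genes of 4 pathway lists and the 3 genes most like each member. Promoter windows and their coordinates came from RefSeq, whose build (GRCh38.p14) differs from hg19, and they were not joined to the expression values by position. Figures were drawn with matplotlib 3.10.9.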

Additional observations from a re-analysis of the deposited data

Results flagged for a closer look

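*CNN3* and *MYLK* were called above d0 on at least 1 treated day and below it on another, and the difference between those days was itself past the threshold. For *CNN3* the log2 difference between d1 and d15 was 0.93 (limma, Benjamini-Hochberg adjusted p = 6.39e-13), and for *MYLK* that between d20 and d4 was 0.88 (limma, adjusted p = 1.67e-11). The choice of the highest and the lowest day makes such a difference likely. With 3 libraries at each timepoint, no outlier test was run on single values.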

How the results depend on the processing

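No paired analysis was possible because column names give only the timepoint and not the labels' replicate number. Of 168 counts of members against d0 under the alternatives, 81 with another setting and 69 with 1 library left out stayed within 1.5 times the count, and of 702 log2 fold changes of members against d0, 363 and 321 kept their direction and side of the threshold. A minimum log2 fold change of 1 gave 2, 2, 4, 2 and 3 members higher at d1, d4, d7, d10 and d20 and 0 lower at d1, d4, d7, d10 and d15. Rescaling to the same total gave 2 members lower at d7, 2 at d10 and 2 at d20, where 6557, 6747 and 6784 of 13352 genes were lower. Quantile normalization gave 2 at d10 and 2 at d20, beside 4716 and 4959 of 13343 genes. With 1 library left out, 1 to 2 members were lower at d4 (1 without the second untreated or the first d4 library, where *MYLK* lost its call) and 1 to 2 at d7 (2 without the third d7 library).

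Reversed values with the same total were those of *CNN2* at d1 (-0.024), d4 (-0.011), d10 (-0.20) and d20 (-0.17), *CNN3* at d7 (-0.18) and *TPM2* at d20 (-0.19). With quantile normalization they were *CNN2* at d1 (-0.0071), d10 (-0.18) and d20 (-0.13), *TPM2* at d20 (-0.15) and *TPM2* at d10 against d7 (-0.12). With a d7 or d0 library left out *CNN3* at d7 ranged from -0.075 (without the third d7 library, reversed) to 0.069. The same total lowers every fold change by the shift of the median gene, and the cause of the other changes was not tested. On the recovered reads edgeR's quasi-likelihood test called 5097 genes higher and 5189 lower at d15, of 13343, against 4044 and 6303 of 13352 with the same total in limma. Depth limits *CNN1*, which had at most 3 reads.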
